A study of Sus scrofa with 16 samples.

Results

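The enzymes of the citric acid cycle were followed in the pituitary of Złotnicka White gilts, a native Polish breed, that differed in feed conversion. Of 9 enzyme genes looked up by symbol (CS, IDH3A, IDH3B, OGDH, SUCLG1, SDHA, SDHB, FH and MDH2), 8 had that symbol among the named genes of the deposited data and were described here, out of 25880 Ensembl genes counted. CS was not among the genes named there. It was found through a separate table of gene names, and its values are given beside the others without being counted with them. RNA of the whole gland, both lobes together, was sequenced in 16 females, 8 of low feed conversion (LFC) and 8 of high (HFC). The labels give day 180 for all pigs, no agent was given to any, and all were fed and housed alike at 1 test station. They were unrelated animals from different farms, so the replicates are separate pigs, and the farm of each pig was not given. By the study's account the test ended at a set body weight, and the HFC pigs of this breed spent more days in it. Age at sampling may therefore differ between the groups despite the shared label, and cannot be told apart from feed conversion here. The study also reported slower daily gain, more fat by several measures and less meat in the HFC pigs of this breed. These traits cannot be told apart from feed conversion either.

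The citric acid cycle runs in the mitochondrial matrix, where the acetyl group of acetyl-CoA is joined to oxaloacetate and oxidised step by step to carbon dioxide, while the electrons pass to the respiratory chain. Its intermediates are also withdrawn for the synthesis of lipids, amino acids and haem. In secretory tissue such as the pituitary, hormone synthesis and exocytosis draw on the ATP that follows from it, and inherited loss of succinate dehydrogenase or fumarase subunits is known for tumours of neuroendocrine and other tissues.

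The libraries held between 6010629 and 11794256 counted reads, with medians of 7803047 in the LFC and 9027332 in the HFC group. Expression is given as CPM, the count of a gene relative to the size of its library, scaled by the TMM method of edgeR. Each enzyme had between 351 and 2476 reads in a pig, for which counting alone gives a coefficient of variation (CV) of 5.34% to 2.01%. Markers of hormone cells, glia, endothelium, fibroblasts, macrophages and red blood cells were all present in the whole gland. Summed markers of posterior lobe glia and myelin lay between 1240 and 6039 CPM in 4 pigs (LFC replicates 1, 5 and 7 and HFC replicate 6) and between 125 and 262 CPM in the other 12. A gene span slope was computed for each pig as the slope of log2(CPM + 1) on the log10 of the genomic span of a gene, over 10890 genes. A lower slope means that genes of long span had relatively fewer reads. It was lowest in LFC replicate 6 (-0.34), LFC replicate 4 (-0.34) and HFC replicate 5 (-0.28). Values without these pigs are given for some results only. The relations to library totals and to markers of endothelium, fibroblasts, macrophages and red blood cells were not rerun without them.

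None of the 8 enzymes differed between the groups when an adjusted p up to 0.05 and a 1.3-fold change or more were required (edgeR's quasi-likelihood test, Benjamini-Hochberg adjusted). The same was true of all 13621 genes tested, of which 0.0% were called, with a smallest adjusted p of 0.372. DESeq2 called 30 of 14634 genes (0.205%), none of them a citric acid cycle enzyme. The study reported many more genes for this breed with DESeq2 at the same limits. The cause of that difference was not tested. At an unadjusted p of at most 0.05, OGDH was higher and IDH3A was lower in the HFC pigs, 2 of 8 enzymes beside 11.4% of all genes (7.03% higher and 4.41% lower). The log2 fold change, HFC over LFC, was below 0 for 6 of the 8 enzymes and for 52.1% of all genes. The CPM of the groups overlapped for all 8 enzymes, and for all but 1 of the genes tested (0.00734%). The median log2 fold change was -0.10 over the enzymes and -0.01 over all genes. By genomic span, the median over genes was -0.11 below 10 kb and -0.05 from 10 to 20 kb. It was -0.03 from 20 to 40 kb, 0.01 from 40 to 80 kb and 0.08 above 80 kb. The enzyme genes span 9.7 to 76.3 kb. The absolute change of 4 enzymes was smaller than the median absolute change of all genes, 0.16 on the log2 scale. Since whole glands were sequenced, fewer cells of a type and less RNA per cell cannot be told apart.

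**Figure D1:**
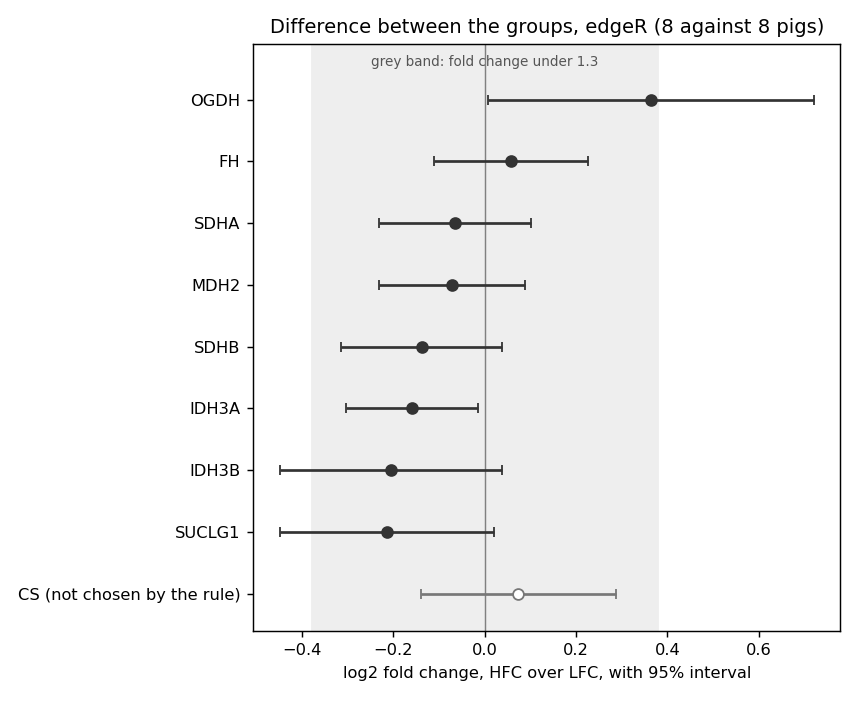
Log2 fold change of each enzyme, HFC over LFC, with its 95% interval from edgeR (8 against 8 pigs). The intervals of OGDH and IDH3A leave out 0, OGDH on the higher side from 0.01 to 0.72 and IDH3A on the lower side from -0.30 to -0.01. CS, which was not among the genes named in the deposited data, is drawn as an open symbol.

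The NAD-dependent isocitrate dehydrogenase oxidises isocitrate to 2-oxoglutarate and is built from an alpha subunit that carries the catalytic site, encoded by IDH3A, and from beta and gamma subunits. IDH3A (ENSSSCG00000032498, Sscrofa11.1 chromosome 7, 47756594 to 47779512) had 78.1 CPM in the lowest LFC pig, a median of 90.3 and 100.2 in the highest. In the HFC pigs it ran from 75.6 over a median of 81.8 to 89.7 CPM. All 8 HFC pigs lay below the LFC median, and 4 LFC pigs lay above the highest HFC pig, while the ranges still overlapped. Its means were 90.6 ± 7.13 CPM (SD, n = 8) in LFC and 81.2 ± 4.48 CPM (SD, n = 8) in HFC. That is a log2 fold change of -0.16 (SE 0.07, 95% interval -0.30 to -0.01), with an unadjusted p of 0.0333 and an adjusted p of 0.426 in edgeR's quasi-likelihood test. IDH3A varied little between pigs, with a CV of 7.87% in LFC and 5.52% in HFC, against medians over all genes of 20.5% and 20.1%.

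IDH3B (ENSSSCG00000007173, chromosome 17, 32955117 to 32964819), the beta subunit of the same enzyme, varied more. It ran from 51.2 over a median of 68.0 to 87.2 CPM in the LFC pigs and from 51.1 over 56.8 to 72.2 CPM in the HFC pigs. The groups started from nearly the same value, and 3 LFC pigs lay above the highest HFC pig. The log2 fold change was -0.20 (SE 0.12, 95% interval -0.45 to 0.04, edgeR adjusted p 0.465). The 4 pigs with the most glia and myelin markers were also the 4 pigs with the most IDH3B, at 72.2 to 87.2 CPM, above the 51.1 to 71.9 CPM of the other 12. Without those 4 pigs, which leaves 5 LFC and 7 HFC pigs, the log2 fold change of IDH3B was -0.07 and that of IDH3A was -0.14, with unadjusted p values of 0.563 and 0.126 in edgeR. The part of posterior lobe tissue in either difference was not tested.

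The 2-oxoglutarate dehydrogenase complex carries out the next oxidation, and OGDH (ENSSSCG00000016743, chromosome 18, 50609417 to 50685674) encodes its first, thiamine-dependent component. It was the most variable of the 8 enzymes, with a 2.69-fold range between the lowest and the highest pig, against 1.27-fold to 1.71-fold for the other 7 and a median of 2.15-fold over all genes. The LFC pigs had 62.2 CPM at the lowest, 105.9 at the median and 158 at the highest. The HFC pigs had 80.4 CPM at the lowest, 134 at the median and 167 at the highest. HFC pigs were above the LFC median in 7 of 8 cases, and the ranges overlapped. OGDH was 104 ± 29.6 CPM (SD, n = 8) in LFC and 134 ± 27.0 CPM (SD, n = 8) in HFC. The log2 fold change was 0.36 (SE 0.17, 95% interval 0.01 to 0.72), with an unadjusted p of 0.0461 and an adjusted p of 0.433 in edgeR. With the gene span slope as a covariate it was 0.10, and without the 3 pigs of lowest slope it was 0.28 (unadjusted p 0.0243, adjusted p 0.291, edgeR).

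SUCLG1 (ENSSSCG00000008247, chromosome 3, 60141707 to 60177770) encodes the alpha subunit of succinyl-CoA ligase, which makes a nucleoside triphosphate directly in the cycle. In the LFC group it ran from 118 over a median of 134 to 171 CPM. In the HFC group it ran from 103 over a median of 121 to 172 CPM. The highest HFC value, in replicate 5, was far from the other 7, which ended at 124 CPM. The log2 fold change was -0.21 (SE 0.11, 95% interval -0.45 to 0.02, edgeR adjusted p 0.451). It was -0.05 with the gene span slope as a covariate and -0.19 without the 3 pigs of lowest slope (unadjusted p 0.0176, adjusted p 0.272, edgeR).

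Succinate dehydrogenase belongs both to the cycle and to the respiratory chain, where it is complex II. SDHA (ENSSSCG00000020686, chromosome 16, 79838154 to 79906500), the flavoprotein that oxidises succinate, ran from 153 over a median of 180 to 198 CPM in LFC and from 150.4 over 169 to 184 CPM in HFC. SDHB (ENSSSCG00000020926, chromosome 6, 75647071 to 75678111), the iron-sulphur subunit, ran from 79.1 over 82.2 to 105 CPM in LFC and from 69.1 over 76.3 to 90.0 CPM in HFC. Both subunits overlapped widely between the groups. The log2 fold change was -0.07 for SDHA (SE 0.08, 95% interval -0.23 to 0.10, edgeR adjusted p 0.698) and -0.14 for SDHB (SE 0.08, 95% interval -0.31 to 0.04, edgeR adjusted p 0.483). The change of SDHB was -0.08 without LFC replicate 6, its highest pig, -0.08 with the gene span slope as a covariate and -0.06 with 1 surrogate variable.

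FH (ENSSSCG00000028178, chromosome 10, 12402675 to 12431821), fumarase, hydrates fumarate to malate. It ran from 61.0 over a median of 75.7 to 79.3 CPM in LFC and from 64.1 over 74.4 to 88.1 CPM in HFC. MDH2 (ENSSSCG00000025486, chromosome 3, 10118775 to 10132830), the mitochondrial malate dehydrogenase that closes the cycle, ran from 185 over 208 to 231 CPM in LFC and from 182 over 193 to 224 CPM in HFC. Neither gene separated the groups. The log2 fold change was 0.06 for FH (SE 0.08, 95% interval -0.11 to 0.23, edgeR adjusted p 0.741) and -0.07 for MDH2 (SE 0.08, 95% interval -0.23 to 0.09, edgeR adjusted p 0.659). For all enzymes but OGDH, IDH3B and SUCLG1, the interval lay within a 1.3-fold change in either direction.

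CS (ENSSSCG00000035686, chromosome 5, 21669770 to 21700737) encodes citrate synthase, which opens the cycle. It ran from 77.7 over a median of 102 to 123 CPM in the LFC pigs and from 87.7 over 108 to 120.1 CPM in the HFC pigs. The groups overlapped, and the log2 fold change was 0.07 (SE 0.10, 95% interval -0.14 to 0.29, edgeR adjusted p 0.738), turning to -0.06 with the gene span slope as a covariate. Without the 3 pigs of lowest slope the log2 fold change was 0.01.

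**Figure D2:**
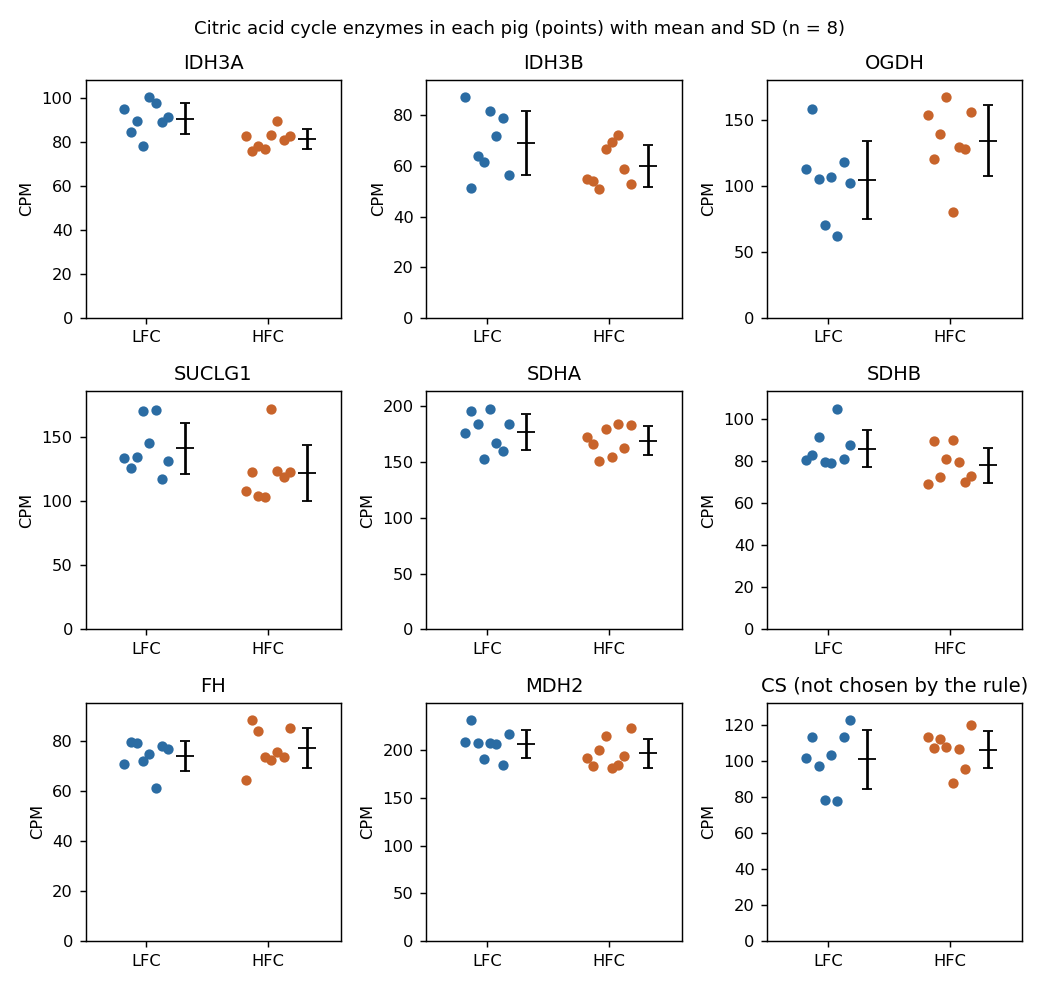
Expression of the 8 enzymes and of CS in each pig, in CPM on axes that start at 0. Each point is 1 pig, with replicates 1 to 8 from left to right, and the black bar is the mean with its SD (n = 8 per group). All HFC pigs lie below the LFC median of 90.3 CPM for IDH3A, and OGDH spreads most widely, from 62.2 to 167 CPM.

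The enzymes did not vary as 1 block across the 16 pigs. Pearson's r of log2(CPM + 1) was positive for 17 and negative for 11 of the 28 pairs, with a median of 0.09, beside -0.004 over all pairs of genes tested. SDHA and SDHB, which form 1 enzyme, had an r of 0.05. The median r of the 28 pairs was 0.39 and 6 pairs were negative when libraries were scaled by their total alone, so the sign of the weaker pairs depends on the scaling.

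The clearest pair was an opposite one. OGDH and SUCLG1, which act in succession, had a Pearson's r of -0.90 and a rho (Spearman) of -0.82 over 16 pigs (two-sided permutation tests, adjusted over 28 pairs, p 0.00084 and 0.00784). The r was -0.88 within the LFC pigs and -0.91 within the HFC pigs (exact permutation p 0.00675 and 0.00915, n = 8 each). It was -0.83 without the 2 pigs farthest from the OGDH median, -0.72 in the 13 pigs without the 3 of lowest gene span slope, and -0.71 with scaling by total library size. Those 3 pigs held the 3 highest SUCLG1 values, 170.2 to 172 CPM against 103 to 145 CPM in the other 13. They also held the 3 lowest OGDH values, 62.2 to 80.4 CPM against 102 to 167 CPM.

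In 3 further pairs the adjusted permutation p of r was 0.047. These were IDH3A with IDH3B (r 0.67, rho 0.61), SDHA with MDH2 (r 0.65, rho 0.64) and OGDH with SDHB (r -0.65, rho -0.52). By rho the adjusted p of the same pairs was 0.129, 0.119 and 0.141. Within the groups of 8 the r of IDH3A with IDH3B was 0.62 in LFC and 0.50 in HFC (exact permutation p 0.0985 and 0.212), and without the 4 pigs rich in glia and myelin markers it was 0.37. The r of SDHA with MDH2 was 0.81 in LFC and 0.43 in HFC (exact permutation p 0.0136 and 0.29), and 0.80 without those 4 pigs. Without the 3 pigs of lowest gene span slope it was 0.60, with a rho of 0.56. For OGDH with SDHB it was -0.51 and -0.62 (exact permutation p 0.19 and 0.0859), and -0.19 with scaling by total library size. Without the 3 pigs of lowest gene span slope the r of OGDH with SDHB was -0.52 and the rho -0.40 (n = 13, permutation p adjusted over the relations rerun without these 3 or without the 4 rich in glia and myelin markers, 0.0852 and 0.211), so this pair rests in part on them. LFC replicate 6 had both the highest SDHB and the lowest OGDH. Leaving out the 2 pigs farthest from the median of the first gene of each pair gave 0.57, 0.71 and -0.60.

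**Figure D3:**
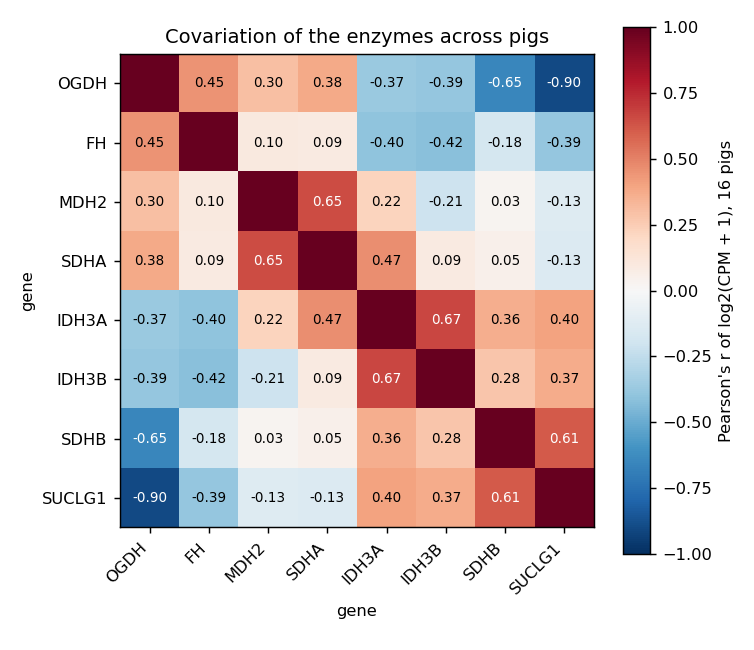
Pearson's r of log2(CPM + 1) between each pair of the 8 enzymes over 16 pigs, on a colour scale from -1 to 1. OGDH and SUCLG1 stand at opposite ends with an r of -0.90, and IDH3A with IDH3B (0.67) and SDHA with MDH2 (0.65) are the highest positive pairs.

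The 8 enzymes were then set beside 8 measures of each pig, 64 relations in all, with permutation p values adjusted over the 64. The gene span slope followed OGDH and SUCLG1 most closely. Its r was 0.94 with OGDH (rho 0.88) and -0.95 with SUCLG1 (rho -0.92), each with a permutation p of 1e-05, the smallest that 100000 resamples can give, and an adjusted p of 0.00032. Within LFC and HFC the r was 0.94 and 0.91 for OGDH (exact permutation p 0.00122 and 0.00737) and -0.97 and -0.95 for SUCLG1 (exact permutation p 0.00067 and 0.00275). Without the 2 pigs farthest from the median slope it was 0.87 and -0.92. Without the 3 pigs of lowest slope it was 0.78 and -0.84 (n = 13). For SDHB the r with the slope was -0.61 and the rho -0.46 (adjusted permutation p 0.059 and 0.228). Without the 3 pigs of lowest slope these were -0.49 and -0.30 (n = 13). Each gene lies within the slope itself, as 1 of 10890. Over all genes tested, 3.18% had an r of at least 0.9 with the slope and 3.22% an r of at most -0.9, with a median of 0.00.

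The spans of some of these genes are given beside their relation to the slope. OGDH spans 76.3 kb. SDHA spans 68.3 kb, and its r with the slope was 0.29, with a rho of 0.02 (adjusted permutation p 0.47 and 0.967). Within LFC and HFC the r of SDHA was 0.53 and 0.34 (exact permutation p 0.185 and 0.448). The part of gene span in these relations was not tested. SUCLG1 spans 36.1 kb, above the median of 29.6 kb. Of the other subunits of the cycle, OGDHL (a paralogue of OGDH) had an r of 0.83, SDHC -0.91 and SDHD -0.93 (the membrane anchors of complex II), and CS had 0.88. OGDH was also higher in pigs with larger library totals (r 0.74, rho 0.72, adjusted permutation p 0.0123 and 0.021), while SUCLG1 (r -0.68, rho -0.70, adjusted p 0.0263 and 0.0318) and SDHB (r -0.71, rho -0.67, adjusted p 0.0213 and 0.0402) were lower. The r without the 2 pigs of most extreme total was 0.70, -0.70 and -0.70. The part of RNA quality or library preparation in these relations was not tested. The slope itself had means of -0.12 ± 0.15 (SD, n = 8) in LFC and -0.01 ± 0.13 (SD, n = 8) in HFC (exact two-sided permutation p 0.125).

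**Figure D4:**
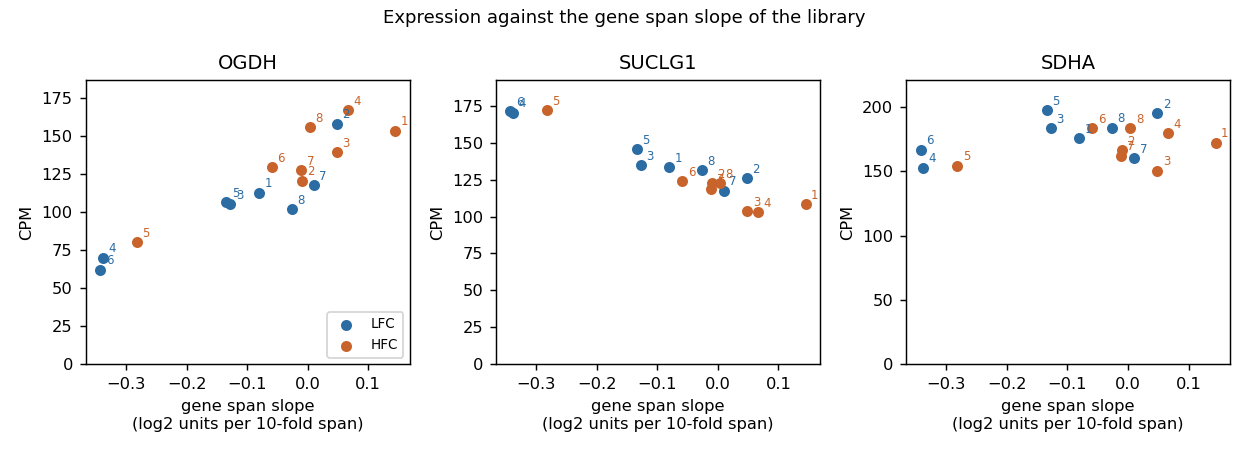
CPM of OGDH, SUCLG1 and SDHA in each pig (numbered by replicate) against the gene span slope of its library, in log2 units per 10-fold span. OGDH rises and SUCLG1 falls along the axis in both groups (r 0.94 and -0.95), while SDHA shows no such relation by rank over all pigs (r 0.29, rho 0.02). LFC replicates 4 and 6 and HFC replicate 5 lie apart at the left.

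IDH3A and IDH3B were lower where markers of hormone cells were higher. The summed CPM of 9 markers of anterior lobe hormone cells (among them PRL, GH1, CGA and CHGA, with POMC not found under its symbol and none of the 9 at 0 in all pigs) ran from 92350 to 159540 in the LFC and from 105110 to 223580 in the HFC pigs. Its r with IDH3B was -0.79 (rho -0.80, adjusted permutation p 0.00704 and 0.0096) and with IDH3A -0.67 (rho -0.64, adjusted permutation p 0.0263 and 0.0468). For IDH3B the r was -0.84 within LFC and -0.78 within HFC (exact permutation p 0.00918 and 0.0331), and -0.74 without the 2 most extreme pigs. For IDH3A it was -0.66 and -0.53 (exact permutation p 0.0683 and 0.175), and -0.54 without the 2 most extreme pigs. Without the 4 pigs rich in glia and myelin markers the r was -0.65 for IDH3B and -0.45 for IDH3A (n = 12), so the relation of IDH3A rests in part on those pigs. The hormone cell markers take a large and unequal share of the counts, and their own group difference was 0.38 on the log2 scale (HFC minus LFC, exact two-sided permutation p 0.0598, adjusted p 0.179 over 9 measures). The markers did not move as 1, with 6 higher and 3 lower in HFC. PRL (prolactin) was 30106 ± 13377 CPM in LFC and 72531 ± 27492 CPM in HFC (SD, n = 8), GH1 (growth hormone) 47673 and 49129 CPM, and CGA (the common alpha subunit of glycoprotein hormones) 28002 and 18949 CPM. The log2 fold changes were 1.27, 0.04 and -0.56 (edgeR adjusted p 0.372, 0.941 and 0.433), and the relation of the enzymes to each marker alone was not tested. PRL and CGA were among the differential genes that the study reported for this breed.

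**Figure D5:**
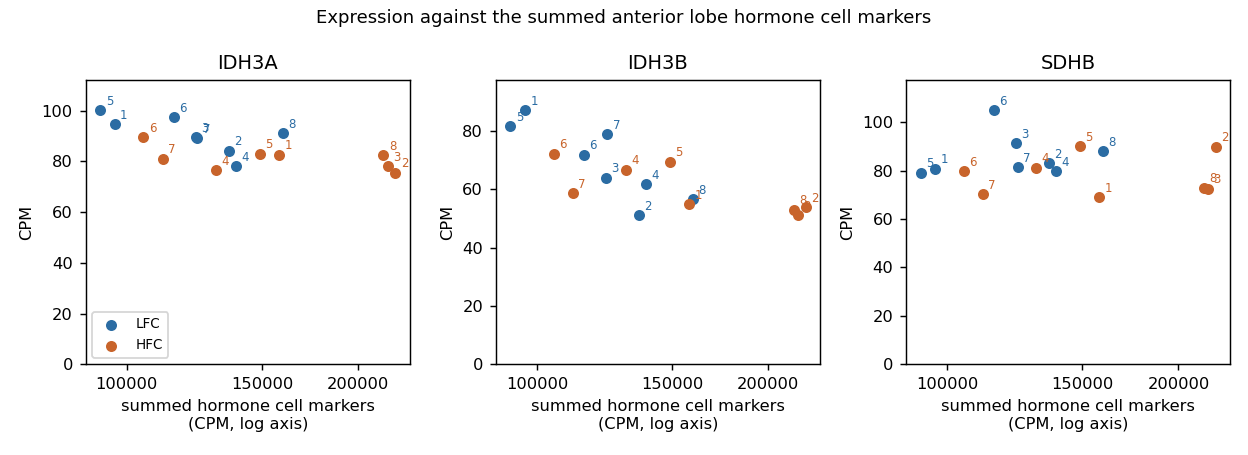
CPM of IDH3A, IDH3B and SDHB in each pig (numbered by replicate) against the summed CPM of anterior lobe hormone cell markers on a log axis. IDH3B falls from 87.2 to 51.1 CPM along the axis (r -0.79) and IDH3A less steeply (r -0.67).

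Markers of blood moved with OGDH, SUCLG1 and SDHB, and those of connective tissue with OGDH, at an adjusted permutation p up to 0.05. The red blood cell markers summed were HBB and ALAS2, as AHSP did not pass the expression filter. Their sum ran from 277 to 1427 CPM in LFC and from 63.1 to 1045 CPM in HFC. With this sum the r was -0.74 for OGDH (rho -0.76), 0.75 for SUCLG1 (rho 0.74) and 0.65 for SDHB (rho 0.66). The adjusted permutation p of r was 0.0123, 0.0123 and 0.0354, and that of rho was 0.0158, 0.0205 and 0.0402. Within LFC and HFC the r was -0.67 and -0.71 for OGDH, 0.49 and 0.77 for SUCLG1, and 0.06 and 0.83 for SDHB. Without the 2 most extreme pigs it was -0.74, 0.74 and 0.73. The red blood cell markers were lower in the HFC pigs by a mean log2 difference of -1.39 (exact two-sided permutation p 0.0227, adjusted p 0.102 over 9 measures). With 6 fibroblast markers (243 to 483 CPM in LFC, 297 to 869 CPM in HFC) OGDH had an r of 0.68 (rho 0.68, adjusted permutation p 0.025 and 0.0402), with 0.83 in LFC, 0.36 in HFC and 0.63 without the 2 most extreme pigs. SUCLG1 fell just short of that limit with them (r -0.62, rho -0.62, adjusted permutation p 0.052 and 0.0614). Its r was -0.85 in LFC, -0.27 in HFC and -0.49 without the 2 most extreme pigs. The summed macrophage markers (161 to 266 CPM in LFC, 88.6 to 309 CPM in HFC) had an r of 0.58 and a rho of 0.65 with IDH3B (adjusted permutation p 0.0876 and 0.0465), with 0.56 in LFC, 0.62 in HFC and 0.42 without the 2 most extreme pigs. Endothelial markers (112 to 175 CPM in LFC, 94.8 to 281 CPM in HFC) and the mean of the mitochondrially encoded genes had no r or rho with an enzyme at an adjusted permutation p of 0.05 or less. The mean of the 13 mitochondrially encoded genes itself was higher in the HFC pigs by 0.45 on the log2 scale (exact two-sided permutation p 0.0214, adjusted p 0.102 over 9 measures). Of the 13 genes 13 were higher, with a median log2 fold change of 0.39, 6 at an unadjusted p of 0.05 or less, 0 called by edgeR and 2 by DESeq2. Without the 3 pigs of lowest slope 12 were higher, with a median of 0.25.

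By list, 5 of 5 endothelial and 4 of 6 fibroblast markers were higher in the HFC pigs, and 6 of 6 glia and myelin, 5 of 6 macrophage and 2 of 2 red blood cell markers were lower, counting those that passed the expression filter. Fibroblast markers were 2 higher and 4 lower with the gene span slope as a covariate. No marker found in these lists was at 0 in all pigs. The part of these cells in the enzyme differences was not tested.

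The remaining subunits of the cycle were not called here either, by edgeR or DESeq2. Of 10 such genes 4 were higher and 6 lower in the HFC pigs, with a median log2 fold change of -0.06 beside -0.01 over all genes. OGDHL was highest, at 41.7 ± 11.2 CPM in LFC and 53.6 ± 13.1 CPM in HFC (SD, n = 8), a log2 fold change of 0.36 (unadjusted p 0.0471, adjusted p 0.433, edgeR), close to that of OGDH. SDHD was lowest, at 113 ± 24.7 CPM in LFC and 94.6 ± 27.5 CPM in HFC (log2 fold change -0.25, edgeR adjusted p 0.493). The study itself listed SDHC and SDHD among its differential genes of this breed, under oxidative phosphorylation. The RNA ratio of OGDH to DLST, the second component of the same complex, ran from -0.04 to 1.20 (log2) in LFC and from 0.72 to 1.56 in HFC. The r with the gene span slope was 0.94 for OGDH and 0.45 for DLST. This ratio was not rerun with the slope as a covariate or without the pigs of lowest slope, and protein was not measured. The ratio of OGDH to OGDHL differed by 0.02 between the group means.

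The assembly factors of succinate dehydrogenase were all lower in the HFC pigs, 3 of 3 found, with a median log2 fold change of -0.28 and none called. With the gene span slope as a covariate 2 of the 3 were higher, with a median of 0.01. SDHAF3 had 6.56 ± 1.10 CPM in LFC and 4.75 ± 1.5 CPM in HFC (SD, n = 8), a log2 fold change of -0.47 (unadjusted p 0.0262, adjusted p 0.419, edgeR), and SDHAF2 had the smallest difference, -0.11. In the pyruvate dehydrogenase complex, which makes acetyl-CoA from pyruvate, and its kinases and phosphatases, 4 of 11 genes were higher and 7 lower, with none called. The extremes were the inhibitory kinases PDK3, at a log2 fold change of 0.35, and PDK4, at -0.35 (edgeR adjusted p 0.467 and 0.512). PDK3 was among the differential genes that the study listed for this breed, under response to hypoxia.

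Among 16 enzymes by which carbon enters or leaves the cycle, 9 were higher and 7 lower in the HFC pigs, and none was called. With the gene span slope as a covariate 7 were higher and 9 lower. ACO1 (the cytosolic aconitase, which also binds iron-responsive RNA elements) had the highest log2 fold change, 0.29 (edgeR adjusted p 0.433). The malic enzymes, ME1, ME2 and ME3, turn malate into pyruvate. ME1 had a log2 fold change of 0.07 (edgeR adjusted p 0.758). ME2 had 119 ± 12.5 CPM in LFC and 100.3 ± 14.5 CPM in HFC (SD, n = 8), a log2 fold change of -0.25 (unadjusted p 0.018, adjusted p 0.413, edgeR). ME3 had 28.6 ± 4.41 CPM in LFC and 34.7 ± 5.15 CPM in HFC (SD, n = 8), a log2 fold change of 0.28 (unadjusted p 0.0205, adjusted p 0.413, edgeR).

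Of the carriers that move substrates over the inner mitochondrial membrane, 1 of 7 was higher (SLC25A12, the aspartate-glutamate carrier, log2 fold change 0.07) and 6 were lower, down to MPC2, a subunit of the pyruvate carrier (log2 fold change -0.27, edgeR adjusted p 0.5). With the slope as a covariate the carriers stood at 3 higher and 4 lower, and without the 3 pigs of lowest slope at 4 higher and 3 lower. Of 10 regulators of mitochondrial genes 2 were higher and 8 lower, with a median log2 fold change of -0.19, and of -0.11 with the slope as a covariate. ESRRA, a nuclear receptor that activates genes of oxidative metabolism, had 30.9 ± 4.90 CPM in LFC and 24.6 ± 4.34 CPM in HFC (SD, n = 8), a log2 fold change of -0.33 (unadjusted p 0.0116, adjusted p 0.413, edgeR). SIRT5, a mitochondrial deacylase, was the highest of the list at 0.03. None of the carriers or regulators was called.

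The genes whose pattern was most like the mean of the 8 enzymes, each standardised over the 16 pigs, were GOT1 (r 0.86), TIMP2 (0.81), PRPS1 (0.76), NAPG (0.75) and GINS1 (0.74). GOT1 is the cytosolic aspartate aminotransferase. The least like were ARHGAP29 (r -0.83), ENSSSCG00000032221 (-0.76) and RC3H2 (-0.76). The enzymes themselves followed their mean unequally, with an r of 0.79 for SDHA and 0.72 for IDH3A but 0.25 for SUCLG1, 0.08 for FH and -0.05 for OGDH. The r of these genes is a description over 16 pigs that share libraries and scaling.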

How the data were processed

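Total RNA of whole pituitaries was turned into non-strand-specific TruSeq libraries and sequenced as single reads. Per the study's methods and the submitters' processing notes (CASAVA 1.8.2, FastQC, RSEM, STAR), the authors aligned the reads to Sscrofa11.1 with Ensembl genes. The deposited values are the authors' raw read counts per gene and pig. The deposited comparison also holds gene symbols, which named the enzymes, gene starts and ends (other columns, which gave the positions and spans) and the authors' group means, ratios and p-values, which were not used. Since near-identical copies and antisense genes can share reads, the counts of single genes carry that uncertainty.

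Groups came from the labels, which give low_FCR and high_FCR under a tag named shear force. These were read as low and high feed conversion. The members and the gene lists were chosen with earlier results of these data known. The tests were run in R 4.3.3 with edgeR 4.0.16, after TMM scaling and the expression filter of edgeR (13621 genes), by the quasi-likelihood test with the group as the sole term and Benjamini-Hochberg adjustment over all genes. The unadjusted p beside it is a description. Alternatives were DESeq2 1.42.0, limma 3.58.1 (voom with quality weights), other scalings and filters, a replicate block, the gene span slope or 1 surrogate variable (sva 3.50.0) as covariate, a pseudocount of 0.1, an adjusted p of 0.1, and each pig left out. Leaving out the 3 pigs of lowest slope or the 4 with glia and myelin markers above 1000 CPM, and other scalings of the relations to pig measures, were chosen after seeing the data. Correlations used log2(CPM + 1) and 100000 resamples, or all orders within 8 pigs, in Python 3.11.15 with scipy 1.17.1. The glia and myelin sum, which falls into separate clusters of pigs, was given no r.

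The named genes were each member, the highest, the lowest and every gene at an unadjusted p of at most 0.05 in each list, and the 5 genes most and 3 least like the mean of the members. Some genes that this rule names are not reported here. SDHC, DLST, ME1, PRL, GH1 and CGA were named after their values were seen. No library was a near copy of another of its group (chi-square per degree of freedom 9.90 to 73.3). The deviations of same-numbered pigs had an r from -0.34 to 0.37, so the numbers do not pair the pigs. On simulated counts of this comparison over 13621 genes, 100 genes were changed 2-fold and 100 changed 1.5-fold, and edgeR recovered 87 and 41 of them. It also called 9 unchanged genes. DESeq2 recovered 90 and 58 of them on the same counts, and called 27 unchanged genes. Each gene was simulated independently, without a shared shift such as the gene span slope, and no change as small as those of the enzymes was simulated. Sequences of the enzymes were not used here.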

Additional observations from a re-analysis of the deposited data

Results flagged for a closer look

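In 18 groups of 8 pigs (9 genes in LFC and HFC), 2 held a pig whose gap to the nearest of the others took more than the critical share of the range, and chance alone marks about 1 group in 20. SUCLG1 was 171.93 CPM in HFC replicate 5, with the other 7 HFC pigs between 103 and 124 CPM. FH was 60.964 CPM in LFC replicate 6, with the other 7 LFC pigs between 70.9 and 79.3 CPM. Both pigs are among the 3 with the lowest gene span slope.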

How the results depend on the processing

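The log2 fold changes of the 8 enzymes kept their direction under every scaling, filter, tool, covariate and left-out pig tried, and none was called. CS turned from 0.07 to -0.059 with the gene span slope as covariate and to -0.0225 with 1 surrogate variable. Over the fits that lack 1 pig each, the changes ran from -0.18 to -0.12 for IDH3A, -0.26 to -0.15 for IDH3B, 0.30 to 0.47 for OGDH, -0.28 to -0.15 for SUCLG1 and -0.15 to -0.08 for SDHB. Under the other alternatives they ran from -0.19 to -0.14, -0.27 to -0.07, 0.10 to 0.44, -0.27 to -0.05 and -0.20 to -0.06. SDHA, FH and MDH2 stayed within 0.12 of 0 throughout.

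The number of enzymes at an unadjusted p of at most 0.05 was less stable. Those higher in HFC fell from 1 to 0 with total library size, the replicate block, the slope covariate, 1 surrogate variable, and without the 4 pigs rich in glia and myelin markers. Those lower in HFC fell from 1 to 0 with at least 10 counts in every pig, the replicate block, and without the same 4 pigs, and were 3 with limma voom weights and 2 without the 3 pigs of lowest slope. Each pig left out gave 0 to 1 higher and 0 to 2 lower. The same count can hold another enzyme: with total library size and without HFC replicate 5 the lower one was SUCLG1, and IDH3A had an unadjusted p of 0.136 and 0.0629. IDH3A alone was also lost without HFC replicate 2 (0.105). OGDH alone was lost without LFC replicate 4 (0.0869) or HFC replicate 1 (0.0787), 6 (0.0543) or 7 (0.0534). Neither IDH3A nor OGDH passed without LFC replicate 1, 3, 5, 6 or 8 or HFC replicate 3, 4 or 8. The replicate block left OGDH at 0.39 (unadjusted p 0.0578, edgeR) and IDH3A at -0.16 (unadjusted p 0.0536, edgeR), beside 0.36 and -0.16 in the main fit. The cause of this loss was not tested. No pig matched best with its own number.

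Over all genes, 958 higher and 601 lower at an unadjusted p of at most 0.05 became 639 and 750 with total library size, 372 and 278 with the slope covariate, and 402 and 302 with 1 surrogate variable. Those lower were 1227 with limma voom weights and 915 without the 3 pigs of lowest slope. Each pig left out gave 619 to 1894 higher and 319 to 1620 lower, most without HFC replicate 5 and fewest without HFC replicate 4 (higher) and LFC replicate 6 (lower). Genes called were 30 with DESeq2 and 0 in all other alternatives and with each pig left out. Pairs with a negative r were 6 in place of 11 with total library size. The cause of these shifts was not tested. The p-values measure the spread between 8 pigs a group, and the counts limit the precision of single values to 2.01% to 5.34%.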
